A study of Homo sapiens with 3 samples.

Results

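The genes described here encode the proteins that recognise, license and fire replication origins and that copy DNA at the fork. They were chosen by name from a list of 44: the MCM proteins, the origin recognition complex (ORC), the loading factors and their inhibitor, the firing factors, the replicative polymerases with primase, the sliding clamp and its loader, the single-strand binding protein RPA, and the enzymes FEN1 and LIG1 that finish Okazaki fragments. The deposited table holds 38 of them under these symbols, as 54 RefSeq transcripts, among the 18674 genes used. The 6 ORC genes stand in the table under older symbols. They were matched by accession (10 transcripts) and are kept out of the counts over 38. All 38 genes, and the 6 ORC genes, passed the filter on low values, which left 12552 genes to test.

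Messenger RNA was sequenced from A2780, a human ovarian cancer line derived from an undifferentiated tumour. Of the 3 libraries, the control is 1 library of cells with the pBABE vector. The other 2 libraries are from cells with exogenous miR-181a, labelled p181a_1 and p181a_2 and called pool 1 and pool 2 here. One label calls these cells polyclonal pools and another calls them clones, and neither says whether they are independent cultures. P-values therefore set the difference between pools and vector against the spread between these 2 libraries alone, which may be technical, and the test takes the spread of the single vector library to be the same.

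Values are the authors' median coverage along a transcript. They are linear and per base, so levels of different genes can be compared. Differences between groups are the mean of the pools minus vector on the log2(coverage + 1) scale, which understates the change of low genes. The table gives no counts, so depth is unknown. The vector library stood apart from both pools. It had 12.8% of transcripts at 0, against 32.3% and 32.2%, and 62.9% of the 8822 transcripts at 0 in both pools were above 0 in it. Summed coverage was 798228 in it, against 907092 and 719263. Of 8 epithelial and ovarian markers, 6 were at 0 in both pools (EPCAM, KRT19, PAX8, WT1, MUC16 and ESR1), and the markers summed to 234 in vector against 15.8 and 15.4. The sums were 216 against 0 and 0.037 for 3 endothelial markers, 28.6 against 0.044 and 0.0635 for 4 immune markers, 156 against 506 and 435 for 3 fibroblast markers, and 1183 against 2379 and 2046 for 3 mesenchymal markers. The last 2 sums are mostly DCN (144 against 479.6 and 420.3) and VIM (1173 against 2328 and 2007), while COL1A1 (7.41 against 0 and 0.706) and FN1 (2.84 against 0 and 0) went the other way. The part of these shifts in the results for the replication genes was not tested, and no comparison can be made without the vector library.

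Replication is prepared in G1, when ORC, CDC6 and CDT1 load the helicase made of MCM2 to MCM7 onto origins, a step that geminin blocks later in the cycle. In S phase the CDC7 kinase and cyclin-dependent kinases bring CDC45 and the GINS complex to the helicase and so activate it. Polymerase alpha with primase lays down primers, RFC loads the PCNA ring, polymerases epsilon and delta extend the leading and lagging strands, RPA covers single strands, and FEN1 and LIG1 process and join the Okazaki fragments. Many of these genes are known targets of E2F transcription factors.

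A miRNA recognises sites in 3′ UTRs mainly through its seed, bases 2 to 8. The mature miR-181a-5p is shown because its seed defines the sites searched in the replication genes. RefSeq (GRCh38.p14) places it at chr1:198859108-198859130 (minus strand, MIR181A1) and chr9:124692480-124692502 (plus strand, MIR181A2). The seed is in capitals.
hsa-miR-181a-5p: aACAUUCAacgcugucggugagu

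Sites were TGAATGTA (8mer), TGAATGT (7mer-m8) and GAATGTA (7mer-A1), searched on the sense strand in the 3′ UTR of 1 GENCODE transcript per gene (GRCh37). A 7-base site inside an 8mer was counted as the 8mer only. Of the 38 genes, 7 (18.4%) had a site, against 3204 of 12161 tested genes with a UTR (26.3%). The median UTR was 968 bases long in the 38 and 1242 in the tested genes. The 8 sites are shown, each in 30 bases, since they are all that the search found in these genes. Coordinates are those of the site, which is in capitals and lies in the 3′ UTR of the gene.
MCM5, chr22:35820934-35820940, plus strand: gttagtgagggGAATGTAgtggccaccagg
MCM6, chr2:136597952-136597958, minus strand: ccatctacttcTGAATGTgagactttccct
MCM10, chr10:13252429-13252435, plus strand: tttgacctaagTGAATGTtgatactagcta
CDC6, chr17:38459863-38459869, plus strand: aggcatgagtcTGAATGTtgttctcacact
POLA1, chrX:25014193-25014200, plus strand: tcatgtttgtgTGAATGTAgaccaggaaag
POLA1, chrX:25014389-25014395, plus strand: gagagtagctgGAATGTAagtgaccccagg
RFC1, chr4:39289231-39289238, minus strand: atatactaaaaTGAATGTAaaataaggatc
RFC3, chr13:34411507-34411513, plus strand: atccatattgtTGAATGTttcactagttaa
Of these 7 genes, 6 were higher in both pools than in vector, POLA1 was mixed, and none was lower in both. Of the 3204 tested genes with a site, 1449 were higher in both and 1319 lower in both. The median difference of the 7 members with a site was 0.36, and that of the other members was 0.46. PRIM2, GINS2, GINS3 and GMNN, the 4 genes lower in both pools, had none of these letters in the UTRs searched. In all tested genes the median was 0.0844 with a site and 0.0757 without.

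Promoters of 6 genes described further on are shown, as the 120 bases before the RefSeq start (GRCh38.p14) on the strand of the gene. Capitals mark letters that match, on either strand, one of the E2F motifs TTTCCCGC, TTTGGCGC, TTTCGCGC and TTTGCCGC. PCNA, LIG1, POLE and CDT1 were higher in both pools, GINS2 was lower in both, and PRIM2, which differed most, has no match. CDC45, the highest member, has no match either, nor have GINS3 and GMNN, both lower in both pools, and these are not shown. Whether the start used is that of the transcript measured was not checked.
PCNA, chr20:5126623-5126742, minus strand: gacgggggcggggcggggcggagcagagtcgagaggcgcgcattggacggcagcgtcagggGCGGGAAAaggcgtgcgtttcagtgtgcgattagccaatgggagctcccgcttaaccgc
LIG1, chr19:48170345-48170464, minus strand: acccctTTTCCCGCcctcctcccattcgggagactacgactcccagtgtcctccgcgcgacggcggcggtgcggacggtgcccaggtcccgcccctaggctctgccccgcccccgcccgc
POLE, chr12:132687343-132687462, minus strand: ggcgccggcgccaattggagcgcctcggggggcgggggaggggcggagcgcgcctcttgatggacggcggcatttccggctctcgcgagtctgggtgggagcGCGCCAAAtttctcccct
CDT1, chr16:88803669-88803788, plus strand: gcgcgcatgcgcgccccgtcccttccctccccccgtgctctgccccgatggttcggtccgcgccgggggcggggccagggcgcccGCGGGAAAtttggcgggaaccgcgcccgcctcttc
GINS2, chr16:85688955-85689074, minus strand: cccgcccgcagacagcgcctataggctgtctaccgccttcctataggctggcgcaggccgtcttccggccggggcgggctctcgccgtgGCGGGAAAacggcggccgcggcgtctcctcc
PRIM2, chr6:57314685-57314804, plus strand: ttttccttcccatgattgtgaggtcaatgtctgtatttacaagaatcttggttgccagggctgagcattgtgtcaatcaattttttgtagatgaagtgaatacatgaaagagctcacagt
In the 250 bases before the start, 11 of the 32 members with a RefSeq entry (34.4%) held such letters, against 4.39% of 10209 tested genes and 2.79% of all 27305 promoters. The 11 are CDT1, GINS2, LIG1, MCM3, MCM6, MCM7, PCNA, POLA1, POLA2, POLE and RFC3. Some matches overlap on opposite strands, as in MCM6. The letters CCAAT stood in 53.1% of member promoters and 35.7% of tested ones, and TTTGAA or TTCGAA, letters of the cell-cycle homology region, in 3.13% and 10.4%. The median difference was 0.54 in the 11 genes with E2F letters, of which GINS2 alone was lower in both pools, and 0.41 in the 21 without, of which 3 were.

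On the deposited scale most replication genes were somewhat higher in the miR-181a pools, and none passed the test. This direction depends on the scale. In another scaling the pools were centred on genes with a pool mean over 50. Only 10 of the 38 were then higher in both pools, and 18 were lower in both. The median was -0.0402 in the 38 and -0.407 in all tested genes, whose shares by direction are not given for that scaling. With library medians made equal 33 rose by limma, where 50.6% of tested genes rose and 29.5% fell. Directions given for single genes are on the deposited scale unless a scaling is named. By limma with adjustment over all tested genes, 0 of 38 rose and 0 fell, where 1.00% of tested genes rose and 21.7% fell. PRIM2 alone of the 38 had an unadjusted p under 0.05, where 4162 of the 12552 tested genes did. Of the 2124 tested genes with a pool mean over 50, 229 did. In direction, 31 genes were higher in both pools, 4 were lower in both (PRIM2, GINS2, GINS3 and GMNN), and CDC7, POLA1 and POLE2 were mixed. Of all tested genes, 44.6% were higher in both and 41.8% lower in both. At least 1 log2 unit apart from vector in both pools were 0 genes upward and 1 downward (PRIM2), where 2.53% and 27.3% of tested genes were.

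The median difference of the 38 was 0.44, beside 0.07 in all tested genes. In pool 1 alone it was 0.61 beside 0.24, and in pool 2 it was 0.26 beside -0.12. These genes have high coverage, and so the background was also read by level. Among the 2124 tested genes with a pool mean over 50, the median was 0.47 and 77.5% were higher in both pools. The 17 members over 50 had a median of 0.43, with 16 higher in both. At or under 50 the 21 members had a median of 0.46, with 15 higher in both (71.4%), where the tested genes had a median of -0.14, with 37.8% higher in both. In narrower ranges the members stood on either side of the tested genes. The medians were 0.02 for 3 members and -0.36 for tested genes at a pool mean of 1 to 10, 0.17 for 4 members and 0.22 from 10 to 20, 0.57 for 14 members and 0.35 from 20 to 50, 0.38 for 8 members and 0.46 from 50 to 100, and 0.53 for 9 members and 0.49 over 100. In bulk RNA, fewer cells of a type and less RNA per cell cannot be told apart.

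**Figure D1:**
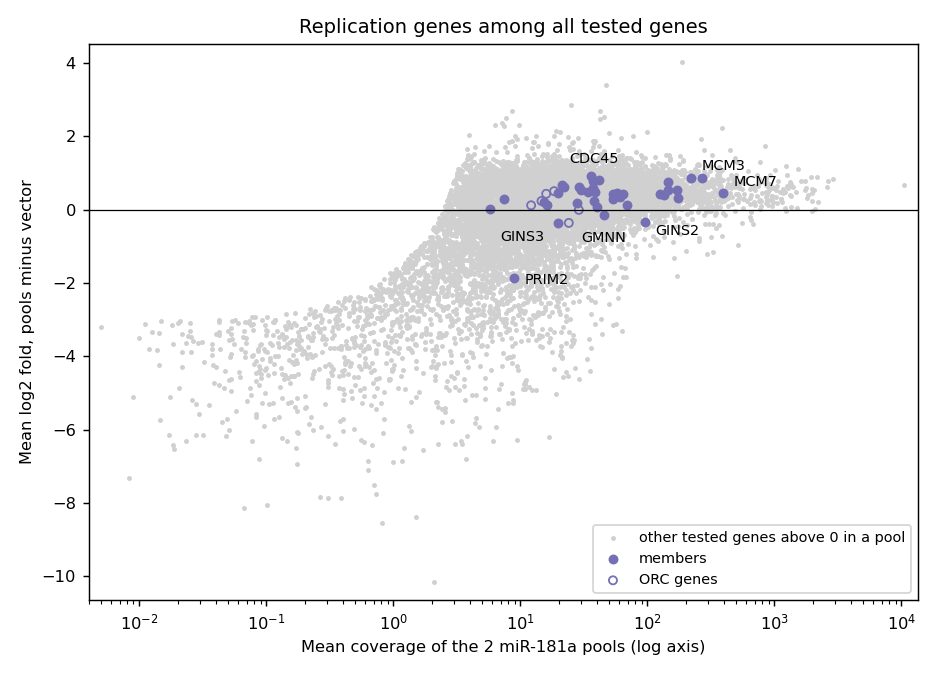
Mean log2 difference of the pools from vector (y axis) against the mean coverage of the 2 pools (x axis, log scale) for tested genes above 0 in a pool (grey), with the 38 members filled and the 6 ORC genes open. Most members lie between 0 and 1 at coverage above 10, and PRIM2 at -1.87 lies below the rest.

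Ranks within a library do not depend on how libraries are scaled, but the rank of a gene also moves when other genes do. Among the tested genes, 34 of the 38 ranked higher in both pools than in vector, and PRIM2, GINS2 and GINS3 ranked lower in both. The same held upward for 62.5% of all tested genes and 84.7% of those over 50, and downward for 33.5% and 8.95%. CDC45 went from percentile 50.6 to 75.4 and 77.1. PRIM2 went from percentile 73.1 to 37.2 and 43.02. MCM7 had the highest coverage of the 38 and POLE2 the lowest in each of the 3 libraries.

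**Figure D2:**
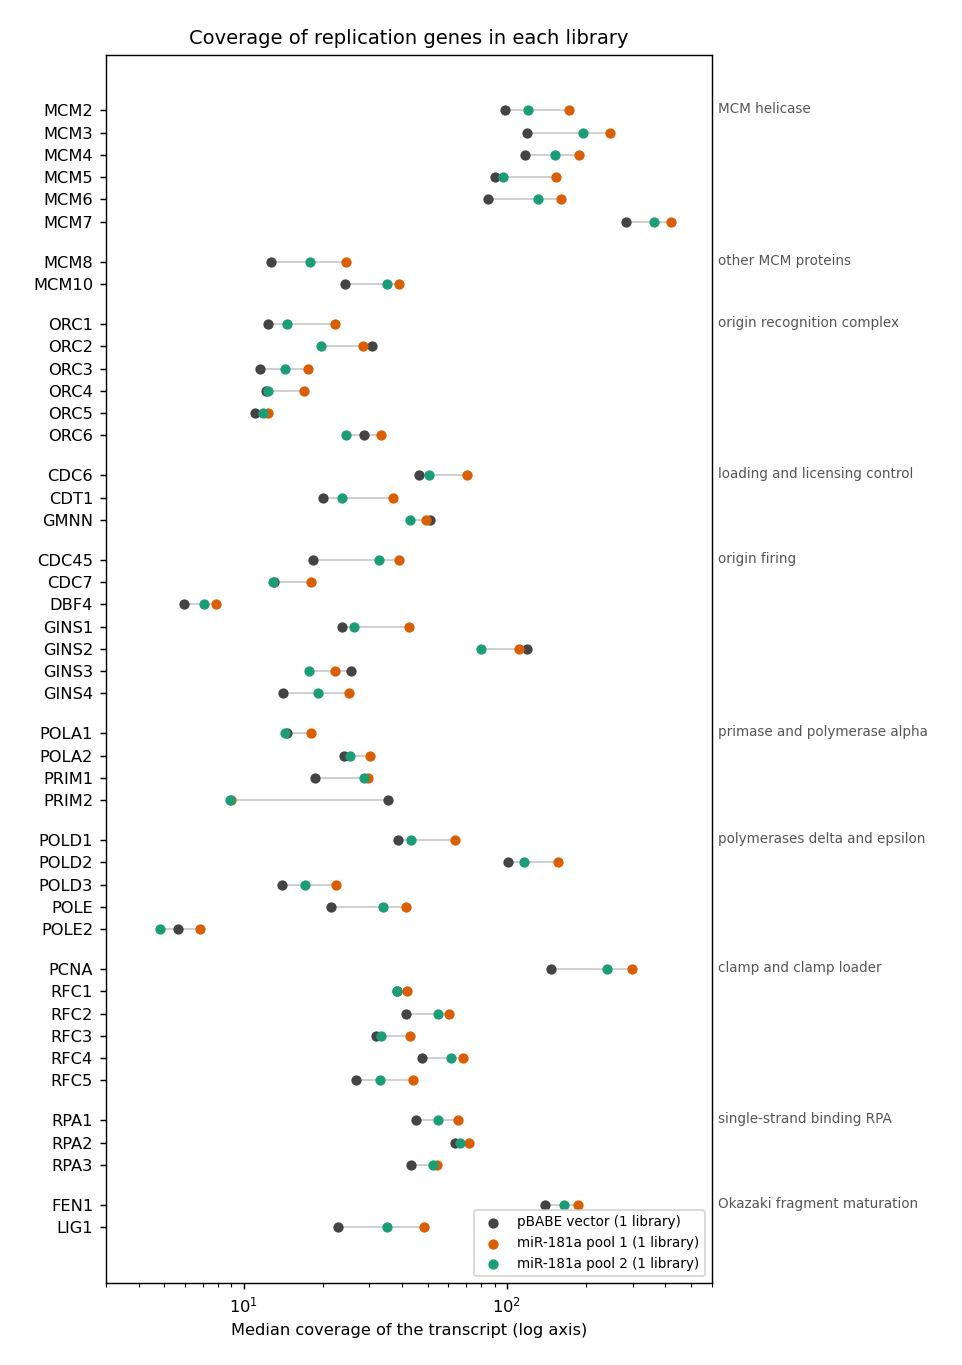
Median coverage (x axis, log scale) of each gene in the 3 libraries, grouped by role. In most genes the vector point is the lowest and the pool 1 point the highest, and in PRIM2 both pools lie far below vector.

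Origins are marked by ORC, and its 6 genes showed no common direction. By limma none passed (0 at an unadjusted p under 0.05, adjusted p from 0.418 to 0.994), and the median difference was 0.18. ORC1, the regulated ATPase subunit, was at 12.4 in vector, 22.3 in pool 1 and 14.6 in pool 2. ORC2 was at 30.7 in vector, 28.5 in pool 1 and 19.7 in pool 2, the 1 subunit lower in both pools. ORC6 was at 28.7 in vector, 33.2 in pool 1 and 24.6 in pool 2, with vector between the pools. ORC3, ORC4 and ORC5 were higher in both pools, by 0.12 to 0.44. Of the summed coverage of ORC, ORC2 held 28.8% in vector and 20.96% ± 1.15 (SD, n = 2) in the pools. ORC1 held 11.7% in vector and 16.01% ± 1.46 (SD, n = 2) in the pools.

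On the deposited scale the loading factors CDT1 and CDC6 were higher in both pools and their inhibitor geminin was lower, with none past the test. The scalings turn some of these signs: GMNN was at 0.264 with equal medians, and CDC6 at -0.0263 and -0.119 under the centrings on a mean and on a pool mean over 50. CDT1 (chr16:88870197-88875666, GRCh37 as for all gene spans given here), which brings the helicase to origins, was at 19.97 in vector, 36.8 in pool 1 and 23.6 in pool 2. The pool 2 value was close to vector and the pool 1 value well above it. The difference was 0.54 ± 0.42 (SE, n = 2 and 1), limma adjusted p = 0.45. CDC6, the ATPase that loads the helicase with ORC, was at 46.5 in vector, 70.7 in pool 1 and 50.6 in pool 2, with the same order. Geminin (GMNN, chr6:24775159-24786327), the inhibitor of CDT1, was at 51.1 in vector, 49.1 in pool 1 and 42.8 in pool 2. Both pools lay under vector, pool 1 only slightly, and the difference was -0.15 ± 0.21 (SE, n = 2 and 1), limma adjusted p = 0.645. The ratio of CDT1 to GMNN coverage was 0.391 in vector and 0.650 ± 0.141 (SD, n = 2) in the pools.

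The helicase genes MCM2 to MCM7 were all higher in both pools, with a median difference of 0.54, and by limma none passed (0 at an unadjusted p under 0.05). Of the 934 tested genes with a pool mean over 100, as all 6 have, 80.6% were higher in both, with a median of 0.49. Centred on a pool mean over 50, MCM5 was at -0.0492 and MCM7 at -0.0191. MCM3 (chr6:52128812-52149679) was at 118.7 in vector, 246 in pool 1 and 195 in pool 2. Both pools lay far above vector, and the difference was 0.88 ± 0.26 (SE, n = 2 and 1), limma adjusted p = 0.182. MCM5 (chr22:35796127-35821424) was at 90.3 in vector, 153 in pool 1 and 96.8 in pool 2. Pool 2 lay just above vector, and the difference was 0.43 ± 0.42 (SE, n = 2 and 1), limma adjusted p = 0.524. MCM7 was at 284 in vector, 419.7 in pool 1 and 362 in pool 2, with both pools above vector. MCM6 was at 84.8 in vector, 160.0 in pool 1 and 131 in pool 2, again with both pools above. The remaining subunits MCM2 and MCM4 had differences of 0.55 and 0.53.

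Summed coverage of the 6 helicase genes was 793 in vector, 1339 in pool 1 and 1057 in pool 2. The share of MCM7 in it was 35.8% in vector and 32.8% ± 2.07 (SD, n = 2) in the pools. That of MCM3 was 14.98% in vector and 18.4% ± 0.0368 (SD, n = 2) in the pools. The vector share lay outside the range of the pools for both, and inside it for MCM2 and MCM5. A place outside is common for 1 library against 2, and was found for most subunits of the complexes read here. MCM10, which helps to activate the helicase, was at 24.2 in vector, 39.1 in pool 1 and 35.1 in pool 2. MCM8, a helicase of recombination, was at 12.7 in vector, 24.5 in pool 1 and 17.9 in pool 2. In both the pools lay above vector.

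Origin firing factors split in direction. CDC45 (chr22:19466980-19508135), a part of the active helicase, had the largest positive difference of the 38. Its coverage was 18.3 in vector, 38.9 in pool 1 and 32.8 in pool 2. Both pools were well above vector, and the difference was 0.93 ± 0.25 (SE, n = 2 and 1), limma adjusted p = 0.164. CDC7, the firing kinase, was at 13.1 in vector, 18.03 in pool 1 and 12.9 in pool 2, with pool 2 at the vector level. Its activator DBF4 was at 5.92 in vector, 7.84 in pool 1 and 7.10 in pool 2, among the lowest levels of the set.

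The 4 GINS subunits, which form 1 complex with equal numbers of each protein, did not go together. GINS1 (chr20:25371644-25433336) was at 23.7 in vector, 42.4 in pool 1 and 26.4 in pool 2. The pools differed more from each other than pool 2 did from vector, and the difference was 0.48 ± 0.44 (SE, n = 2 and 1), limma adjusted p = 0.502. GINS4 was at 14.1 in vector, 25.2 in pool 1 and 19.3 in pool 2, with both pools above vector. GINS2 (chr16:85709804-85723679) was at 119.2 in vector, 111 in pool 1 and 79.9 in pool 2. Both pools lay under vector, and the difference was -0.34 ± 0.32 (SE, n = 2 and 1), limma adjusted p = 0.513. GINS3 (chr16:58328984-58440051) was at 25.6 in vector, 22.2 in pool 1 and 17.7 in pool 2. Both pools lay under vector here too, and the difference was -0.36 ± 0.30 (SE, n = 2 and 1), limma adjusted p = 0.47.

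The direction of GINS3 rests on the transcript. The values above are those of its transcript of highest mean, a second transcript gave -0.14, and NM_001126129, at 9.84 in vector, 18.9 in pool 1 and 15.9 in pool 2, gave 0.76. GINS3 was the 1 gene of 12 with several transcripts whose transcripts differed in sign. Over all 54 transcripts, 46 were higher in both pools and 5 lower in both. None of the 54 passed limma (1 at an unadjusted p under 0.05, lowest adjusted p = 0.0801). Counted by gene, 44.6% of all tested genes were higher in both and 41.8% lower in both. Transcripts of 1 gene can share values, as the 2 of MCM4 do in every library, so the 54 are not separate readings. No share over all transcripts is given here.

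Subunit shares compare genes within a library and so do not depend on scaling. Of the summed GINS coverage, GINS2 held 65.3% in vector and 55.5% ± 0.384 (SD, n = 2) in the pools. GINS1 held 13.00% in vector and 19.8% ± 1.92 (SD, n = 2) in the pools, and GINS4 held 7.70% in vector and 13.00% ± 0.632 (SD, n = 2) in the pools. For each of the 4 subunits the vector share lay outside the range of the pools, as it did for most subunits of the complexes read here. A single value often lies outside the range of 2 others without any difference between groups. The gaps for GINS2, GINS1 and GINS4 were -9.73, 6.77 and 5.30 percentage points. The ratio of CDC45 to GINS2 was 0.154 in vector and 0.381 ± 0.0415 (SD, n = 2) in the pools. With a single vector library the shares have no test.

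**Figure D3:**
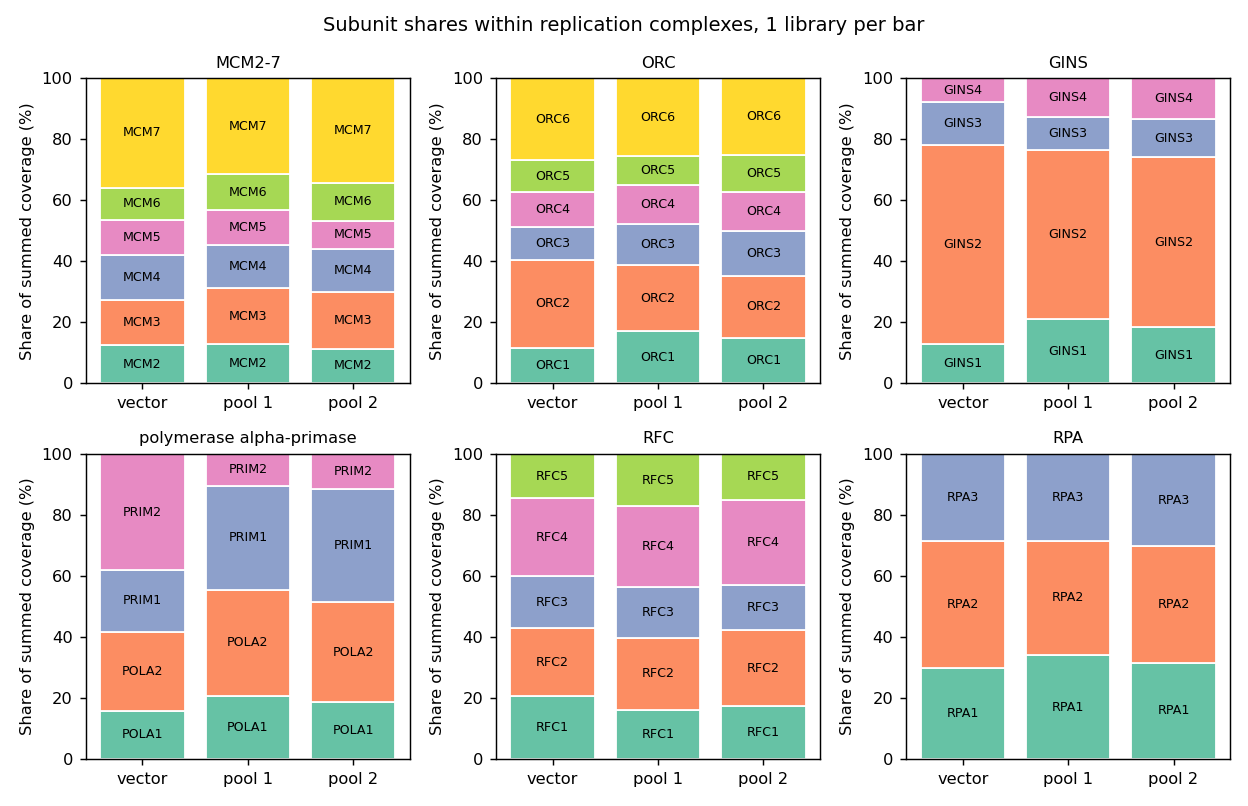
Share of each subunit in the summed coverage of its complex (y axis, percent) in the vector library and the 2 pools, 1 bar per library. PRIM2 goes from 38.1% of polymerase alpha-primase to 10.3% and 11.6%, and GINS2 from 65.3% of GINS to 55.3% and 55.8%.

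Primase gave the largest difference of the set, in 1 of its subunits. PRIM2 (chr6:57179603-57513376), the large subunit, was at 35.3 in vector, 8.95 in pool 1 and 8.91 in pool 2. The pools were almost equal, both far under vector, and the difference was -1.87 ± 0.27 (SE, n = 2 and 1), limma adjusted p = 0.064. PRIM1, the catalytic subunit, was at 18.6 in vector, 29.6 in pool 1 and 28.6 in pool 2. Its pools were also close to each other but above vector, and the difference was 0.62 ± 0.22 (SE, n = 2 and 1), limma adjusted p = 0.219. The ratio of PRIM2 to PRIM1 was 1.90 in vector and 0.307 ± 0.00681 (SD, n = 2) in the pools. The polymerase subunits POLA1 and POLA2 had differences of 0.13 and 0.19.

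The PRIM2 value is uncertain. A pseudogene, PRIM2BP, is annotated on it at chr6:57372288-57512702, so reads could be shared between copies. In the GENCODE transcript lifted to GRCh37, that span holds 7 of 17 PRIM2 exons and 640 of 1683 exon bases (38.03%). Whether the lifted transcript is complete was not checked. Vector values far above the pools were also common at this coverage. At a pool mean from 1 to 10, 14.5% of 5963 transcripts had vector at least as far above the pools as PRIM2, against 1.53% of 4380 from 20 to 50 and 0 of 1524 over 100. Their part in the PRIM2 value was not tested. PRIM2 was past the test, downward, in 8 of the 11 alternatives that have one, with limma adjusted p of at most 0.0738 over all 11.

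The polymerases that extend the strands were mostly higher. POLE (chr12:133200339-133263962), the catalytic subunit of the leading-strand polymerase, was at 21.4 in vector, 41.5 in pool 1 and 33.8 in pool 2. Both pools lay above vector, and the difference was 0.78 ± 0.26 (SE, n = 2 and 1), limma adjusted p = 0.207. POLE2 (chr14:50110273-50155140), its accessory subunit, was at 5.66 in vector, 6.84 in pool 1 and 4.80 in pool 2. Vector lay between the pools, and the difference was 0.02 ± 0.28 (SE, n = 2 and 1), limma adjusted p = 0.968. Of the coverage of the pair, POLE made up 79.1% in vector and 86.7% ± 1.20 (SD, n = 2) in the pools. Of the lagging-strand polymerase, POLD1, the catalytic subunit, was at 38.7 in vector, 63.7 in pool 1 and 43.3 in pool 2. POLD1, POLD2 and POLD3 were each higher in both pools, by 0.41 to 0.46. Centred on a pool mean over 50, they were at -0.0445, -0.0632 and -0.0168. Of their summed coverage, POLD2 held 65.7% in vector and 65.1% ± 0.856 (SD, n = 2) in the pools. POLD3 held 9.09% in vector and 9.46% ± 0.319 (SD, n = 2) in the pools. The vector share lay outside the range of the pools for POLD3, as is common for 1 library against 2, and inside it for POLD1 and POLD2.

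The sliding clamp PCNA (chr20:5095599-5107272) was at 147 in vector, 299.6 in pool 1 and 239 in pool 2. Both pools lay far above vector, and the difference was 0.86 ± 0.26 (SE, n = 2 and 1), limma adjusted p = 0.187. Its second transcript gave 0.97. All 5 subunits of the loader RFC were higher in both pools, with differences from 0.06 to 0.50. RFC1, the large subunit, carries an 8mer site and was the smallest of these, at 38.1 in vector, 41.7 in pool 1 and 38.2 in pool 2, with pool 2 at the vector level. Of tested genes at a pool mean of 20 to 50 and 50 to 100, where RFC lies, 61.3% and 75.1% were higher in both. Centred on a pool mean over 50, RFC1 to RFC4 were at -0.413, -0.00787, -0.233 and -0.0359, and RFC5 at 0.0183. RFC4 was at 47.5 in vector, 68.1 in pool 1 and 61.6 in pool 2, with both pools above. Of the loader's coverage, RFC1 held 20.6% in vector and 16.8% ± 0.796 (SD, n = 2) in the pools. The ratio of PCNA to RFC1 was 3.87 in vector and 6.72 ± 0.663 (SD, n = 2) in the pools.

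The RPA subunits, which cover single strands, were higher in both pools, each by less than the median member. At a pool mean of 50 to 100, as all 3 have, 75.1% of tested genes were higher in both. Centred on a pool mean over 50, RPA1, RPA2 and RPA3 were at -0.0804, -0.359 and -0.178. RPA1, the large subunit, was at 45.1 in vector, 65.05 in pool 1 and 54.8 in pool 2. RPA2 was at 63.6 in vector, 72.03 in pool 1 and 66.2 in pool 2 and had the smallest difference, 0.12. RPA3 was at 43.2 in vector, 54.2 in pool 1 and 52.6 in pool 2. The share of RPA2 in their sum was 41.9% in vector and 37.9% ± 0.341 (SD, n = 2) in the pools. At the last step, LIG1 (chr19:48618702-48673860), the ligase of Okazaki fragments, was at 22.9 in vector, 48.6 in pool 1 and 34.9 in pool 2. Both pools lay above vector, and the difference was 0.82 ± 0.33 (SE, n = 2 and 1), limma adjusted p = 0.251. The flap nuclease FEN1 was at 139.6 in vector, 186 in pool 1 and 165 in pool 2, a difference of 0.33.

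**Figure D4:**
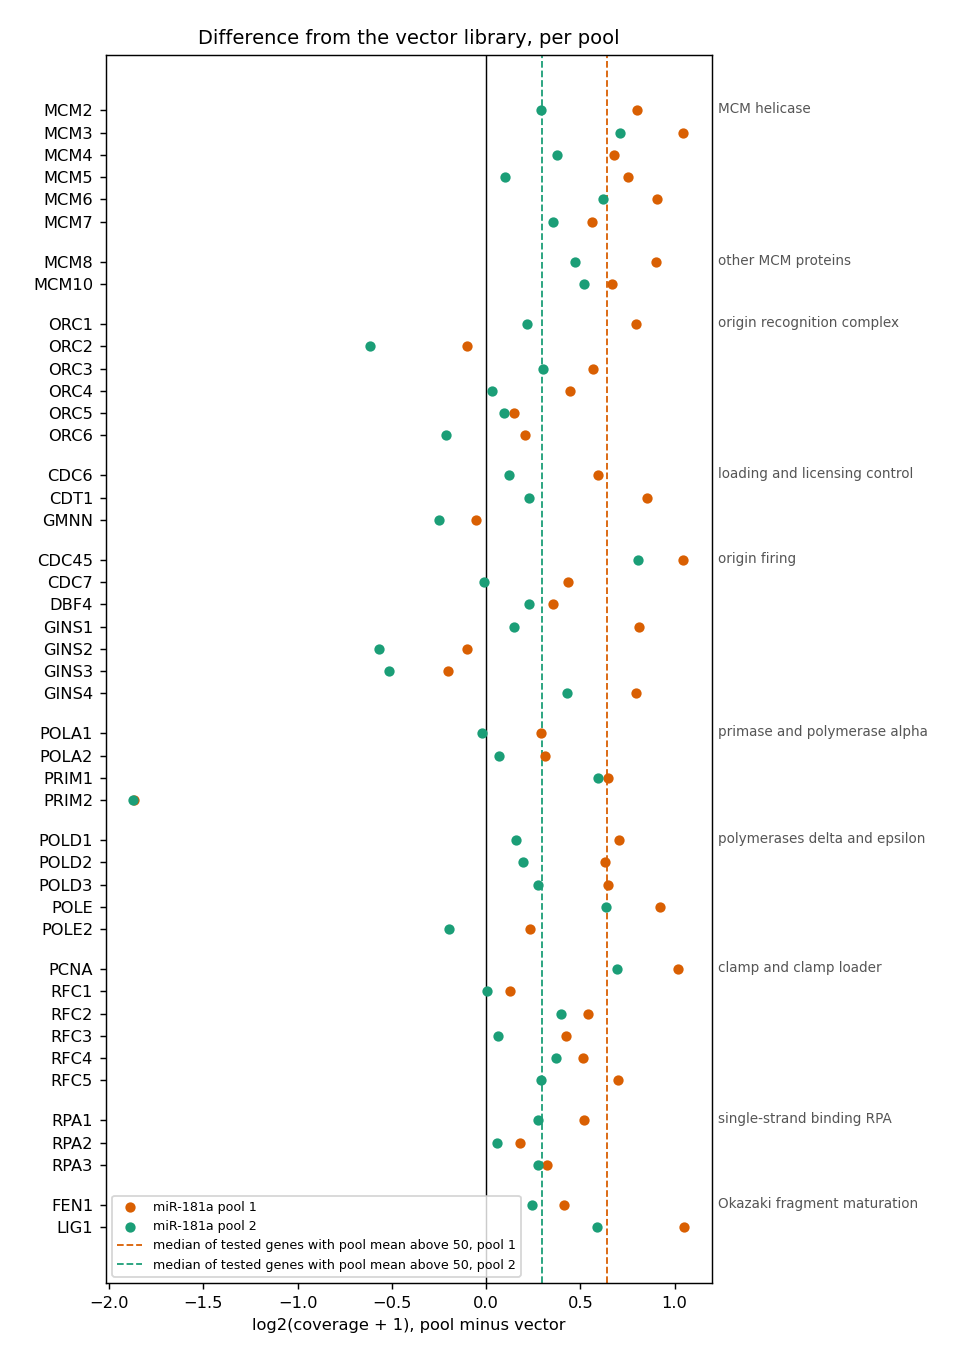
Difference from vector (x axis, log2(coverage + 1)) of each gene in pool 1 and in pool 2, with dashed lines at the median of tested genes with a pool mean above 50. In all 44 genes the pool 2 point lies to the left of the pool 1 point, and the dashed lines lie at 0.64 for pool 1 and 0.30 for pool 2.

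The pools differed from each other in 1 direction. Pool 2 was under pool 1 in all 38 genes, by a median of 0.31, as in 77.2% of tested genes and in 96.0% of those over 50. GINS1, MCM5 and CDT1 had the widest gaps, of 0.66, 0.65 and 0.62. Over all tested genes the median of pool 2 minus pool 1 was -0.27, and -0.32 over a pool mean of 50. With 2 libraries this gap is the whole of the limma error before moderation, so the test counts a shift of a whole library as spread. With library medians made equal the median gap of the members was 0.0194, and 33 rose by limma, where 50.6% of tested genes did.

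The sign of the members' difference turned on how the libraries were scaled. When library medians of tested genes were made equal, 33 of the 38 rose and PRIM2 fell by limma, where 50.6% of tested genes rose and 29.5% fell. When both pools were instead centred on genes with a mean over 50, CDC45, MCM3 and PCNA rose and PRIM2, GINS2, GINS3 and GMNN fell, where 8.17% rose and 43.1% fell. This centring took 0.56 from pool 1 and 0.21 from pool 2, and the median of the 38 was 0.0524. When the centring used a pool mean over 50, 0 rose and the same 4 fell, where 5.46% rose and 46.3% fell, and the median was -0.0402. PRIM2 stayed under vector in these scalings, at -1.45, -2.25 and -2.35. GINS2, GINS3 and GMNN were above vector with equal medians and below it otherwise.

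**Figure D5:**
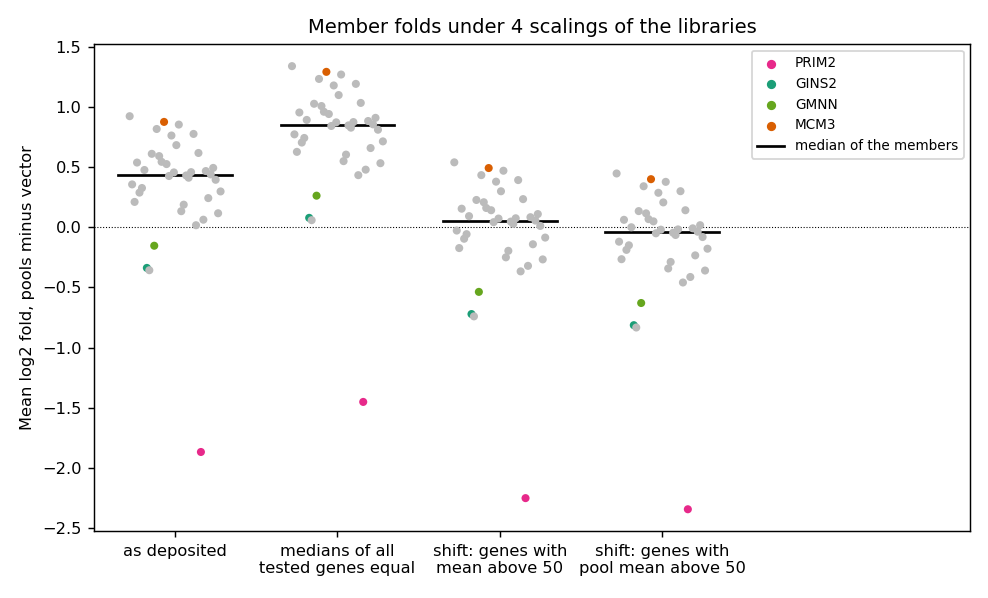
Mean log2 difference of the pools from vector (y axis) for each of the 38 members under 4 scalings of the libraries, with the median as a bar. PRIM2 is the lowest point and MCM3 is above 0 in each, while GINS2 and GMNN are above 0 only where library medians were made equal.

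Other genes of the pathway were read from lists. Of 35 further replication factors, 27 were higher in both pools, and the median difference was 0.48. By limma 1 rose and 1 fell. Over all tested genes the shares were 44.6% higher in both, 1.00% rose and 21.7% fell. Most of the 35 have a pool mean at or under 50, where 37.8% of tested genes were higher in both, with a median of -0.14. Over a pool mean of 50 that share was 77.5% and the median 0.47. MCM9, a partner of MCM8, rose, with coverage of 2.87 in vector, 5.49 in pool 1 and 5.26 in pool 2 (difference 0.72 ± 0.07 (SE, n = 2 and 1), limma adjusted p = 0.0343). Its level is low. At a pool mean of 1 to 10, 117 of 3273 tested genes rose, out of 126 that rose at all levels. WDHD1, which links polymerase alpha to the helicase, fell, with coverage of 199 in vector, 28.9 in pool 1 and 20.3 in pool 2 (difference -2.98 ± 0.34 (SE, n = 2 and 1), limma adjusted p = 0.0414). It lies at a pool mean of 20 to 50, where 56 of 2715 tested genes fell and 4 rose. TOP2A, a topoisomerase, had the largest positive difference, at 54.2 in vector, 123 in pool 1 and 105 in pool 2, and did not pass. SUPT16H, a subunit of the histone chaperone FACT, was next, at 77.1 in vector, 145 in pool 1 and 131 in pool 2, and did not pass. TIPIN, of the fork protection complex, was at 54.1 in vector, 15.5 in pool 1 and 12.3 in pool 2 and did not pass either. At its pool mean, from 10 to 20, 3.52% of 3805 transcripts had vector at least as far above the pools as PRIM2.

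Of 22 genes of nucleotide supply, 17 (77.3%) were higher in both pools, and the median was 0.50. Most of the 22 have a pool mean over 50, where 77.5% of tested genes were higher in both, with a median of 0.47. By limma none passed (2 at an unadjusted p under 0.05, where 4162 of all 12552 tested genes were). IMPDH2, of guanine nucleotide synthesis, was at 78.4 in vector, 158 in pool 1 and 134 in pool 2. CAD, of pyrimidine synthesis, was at 39.4 in vector, 91.5 in pool 1 and 58.8 in pool 2. At the other end RRM2B, a subunit of ribonucleotide reductase, was at 10.9 in vector, 7.83 in pool 1 and 8.09 in pool 2, and ADSL, of purine synthesis, was at 85.7 in vector, 68.1 in pool 1 and 67.03 in pool 2.

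Of 18 E2F and RB regulators, 10 (55.6%) were higher in both pools and 7 lower in both, where 44.6% and 41.8% of all tested genes were. By limma 1 rose and 1 fell. LIN52, a subunit of the MuvB core, rose, with coverage of 1.43 in vector, 4.20 in pool 1 and 4.02 in pool 2 (difference 1.07 ± 0.04 (SE, n = 2 and 1), limma adjusted p = 0.00471). Like MCM9 it lies at a pool mean of 1 to 10, as do 117 of the 126 tested genes that rose. E2F8, a repressor of E2F targets, fell, with coverage of 62.8 in vector, 2.48 in pool 1 and 2.57 in pool 2 (difference -4.18 ± 0.22 (SE, n = 2 and 1), limma adjusted p = 0.0103). The activator E2F2 was at 6.48 in vector, 18.7 in pool 1 and 13.2 in pool 2, and E2F3 was at 6.60 in vector, 17.8 in pool 1 and 13.1 in pool 2. LIN54, also of the MuvB core, was at 20.1 in vector, 6.16 in pool 1 and 5.94 in pool 2. E2F2, E2F3 and LIN54 did not pass. E2F8 and LIN54 also lie at a pool mean of 1 to 10, where 578 of 3273 tested genes fell and 117 rose. Vector values far above the pools were common there, and their part in E2F8 and LIN54 was not tested.

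The 10 genes of the S phase checkpoint had a median of -0.63, with 3 higher in both pools and 6 lower in both, where all tested genes had a median of 0.07, 44.6% higher and 41.8% lower. By limma none passed (5 at an unadjusted p under 0.05, where 4162 of all 12552 tested genes were). RAD17, which loads the checkpoint clamp, was at 68.5 in vector, 16.5 in pool 1 and 13.05 in pool 2. CDC25A, the phosphatase that the checkpoint removes, was at 58.1 in vector, 19.3 in pool 1 and 15.1 in pool 2. Like TIPIN, RAD17 and CDC25A lie at a pool mean of 10 to 20. There 3.52% of 3805 transcripts had vector at least as far above the pools as PRIM2. The part of this in their values was not tested. On the higher side ATR, the kinase of stalled forks, was at 3.86 in vector, 8.25 in pool 1 and 7.93 in pool 2, and HUS1, of the checkpoint clamp, was at 3.97 in vector, 9.33 in pool 1 and 7.08 in pool 2.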

How the data were processed

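RNA of 3 libraries of A2780 cells was sequenced after poly-A enrichment. Per the labels' protocols, the authors aligned reads to hg19, slid windows of 50 bp along each gene and deposited the median of the window densities as its coverage signal. The aligner is not given in the sources used here. A log transform and quantile normalization are named too, but the signal as deposited is linear and its totals differ, so no common scale was assumed. Of 29156 rows, 308 with a blank vector value were left out (none of a member). Each gene is represented by its row of highest mean coverage.

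Genes above the lowest 25% by mean were tested on log2(coverage + 1) with limma 3.58.1 in R 4.3.3 (eBayes with a trend, 1 residual degree of freedom), adjusted by Benjamini-Hochberg over 12552 genes at 0.05. The fit was tested on simulated data without any shift between libraries, so that test does not cover the shifts seen in these libraries. Without counts, the precision that depth gives is unknown. The members and lists were chosen with earlier results of these data known. Full statistics are given for members past the test or the size rule of 1 log2 unit in both pools, the 5 highest and 5 lowest, and the 3 with the widest gap between pools. Of other lists, genes past the test and the 2 highest and 2 lowest are named. Alternatives changed the filter, pseudocount, row, scaling, variance trend, size threshold and pools. Counting the ORC genes and testing every transcript were added after seeing the data.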

Additional observations from a re-analysis of the deposited data

How the results depend on the processing

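No member rose by limma under any of the 11 alternatives with a test except 2 scalings. There were 33 where library medians were made equal and 3 where the pools were centred on genes with a mean over 50. Of all tested genes, 50.6% and 8.17% rose under these scalings. The count that fell, 0 as reported, was 1 (PRIM2) with no filter, with the filter at the median, with genes above 0 in both pools, with a pseudocount of 10, with no variance trend and with equal medians, and 4 under each centring. It stayed at 0 with a pseudocount of 0.1, the row of highest pool mean and the mean of rows. Over the 11 alternatives, 16.9% to 46.3% of all tested genes fell. Equal medians also gave 8 members past the size rule upward, a member median of 0.853, a pool 2 minus pool 1 median of 0.0194, and GINS2, GINS3 and GMNN at 0.0794, 0.06004 and 0.264. Centring on a mean over 50 gave 16 members higher in both pools, a median of 0.0524, a gap between pools of 0.0320 and POLE2 at -0.37. Centring on a pool mean over 50 gave 10 higher in both, a median of -0.0402, a gap of 0.0387, MCM5 at -0.0492 and POLE2 at -0.46. The median of all tested genes was 0.486 with equal medians, and -0.315 and -0.407 under these 2 centrings. Their shares by direction and by size under the scalings are not given here. A centring subtracts from each pool the median log2 ratio to vector of the genes it uses. In pools 1 and 2 this was 0.56 and 0.21 with a mean over 50, and 0.65 and 0.30 with a pool mean over 50. For the other changes the cause was not tested.

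Each pool alone gave a member median of 0.26 (without pool 1) and 0.61 (without pool 2), 0 and 4 members past the size rule upward, and POLE2 at -0.20 and 0.24, with no test. A size threshold of 1.5-fold gave 7 members higher (13.6% of tested genes) and 1 lower (31.7%). Counting the ORC genes left 0 of 44 past the test. No paired analysis was possible because there is 1 vector library for 2 pools. Depth is unknown.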
